A study of Homo sapiens with 6 samples.

Results

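The G1 cyclins and their kinases are the genes whose products start the cell division cycle. The set comprised 8 genes, CCND1, CCND2, CCND3, CCNE1, CCNE2, CDK2, CDK4 and CDK6, chosen by name from the 26334 genes of the count table. All 8 were found and all 8 passed the filter on low counts, which kept 16117 genes for testing. RNA sequencing of poly-A RNA was performed on MCF10DCIS.com cells (hereafter MCF10DCIS), a human breast cancer cell line. Cells were infected either with a control vector whose hairpin targets luciferase (shLuc, n = 3 libraries) or with the corresponding vector carrying hairpins against WDR5 (shWDR5, n = 3 libraries). The study's methods describe a pool of WDR5 hairpins for infections of this line, whereas the labels of these libraries name no single hairpin. In both groups the hairpin was driven by the U6 promoter, TagRFP and a puromycin resistance gene were driven by UbiC, cells were selected with puromycin, and the medium was DMEM/F12 with horse serum. The labels do not say whether the replicates came from separate infections, so p-values measure the spread between these libraries, which may be technical.

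In a dividing cell, D-type cyclins are made in response to growth signals and bind CDK4 or CDK6. The active complexes phosphorylate the retinoblastoma protein and its relatives, which releases E2F transcription factors. Cyclin E then accumulates, binds CDK2, and carries the cell into S phase. CIP inhibitors such as p21 bind the CDK2 complexes, INK4 inhibitors bind CDK4 and CDK6 directly, and the CDK-activating kinase adds the phosphate that these kinases need on their activation loop. CCND1 is a well known oncogene in breast cancer, and inhibitors of CDK4 and CDK6 are used in its therapy.

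WDR5 silencing changed this set in both directions. CDK2 fell by 40.9% and CCND3 fell by 28.3%, whereas CDK6 was 1.41-fold, CCNE1 1.40-fold and CCND2 1.19-fold higher in shWDR5 cells. CCND1, CCNE2 and CDK4 did not pass the test. In total 5 of 8 genes were called at an adjusted p (FDR, edgeR quasi-likelihood test with Benjamini-Hochberg adjustment over all genes tested) under 0.05, 3 higher and 2 lower. The share among all genes tested was 56.5%, with 26.6% higher and 29.9% lower, so the count of called genes in this set was near the background. Their median log2 fold change was 0.11, beside -0.01 over all genes tested.

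Total counts ranged from 38218108 to 57640167 per library. The targeted gene, WDR5, was lower in every shWDR5 library, from 16.0 ± 0.657 (SD, n = 3) to 7.17 ± 0.584 RPKM (counts scaled by exon length and by library size with TMM factors). The log2 fold change of WDR5 was -1.15 ± 0.074 (SE, edgeR adjusted p = 8.7e-07). All 8 genes of the basal epithelial list were present, 5 of them higher and 2 lower. Their summed level was 2410 to 2500 RPKM in shLuc and 3870 to 4320 RPKM in shWDR5 libraries. Most of this rise was KRT17, from a mean of 1370 to 2620 RPKM, and KRT5, from 356 to 671 RPKM. The 2 lower genes were CDH1, from 103 to 50.3 RPKM, and EPCAM, from 165 to 131 RPKM. The part of these differences in the results was not tested. Luminal markers summed to 1740 to 1880 RPKM in shLuc and 1680 to 1840 RPKM in shWDR5 libraries, nearly all of it KRT8 and KRT18. Of the 5 luminal markers tested, KRT19 was higher, from 0.893 to 3.18 RPKM, and GATA3 was lower, from 11.4 to 8.67 RPKM. Fibroblast markers summed to at most 4.05 RPKM, endothelial markers to at most 1.87 RPKM and immune markers, of which CD68 made most, to at most 7.84 RPKM. PGR, COL3A1, LUM, DCN, CD3E and MS4A1 had no more than 3 counts in any library. In bulk RNA, fewer cells in a phase of the cycle and less of a transcript per cell cannot be told apart.

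Promoter sequences were shown for the members that have an entry in the RefSeq-derived promoter table (GRCh38.p14), which were 4 of 8: CCND3, CCNE1, CDK4 and CDK6. Each window runs from 250 bases before to 50 bases after the start site, 5′ to 3′ on the gene's strand. For CCND3 the first of 3 listed starts and for CDK6 the first of 2 was taken, and counts per gene cannot tell which start was used. Capitals mark every CACGTG, the E-box that MYC family factors can bind, and every GGGCGG or its reverse complement CCGCCC, the GC box. The windows are chr6:42048639-42048938 (minus strand) for CCND3, chr19:29811741-29812040 (plus strand) for CCNE1, chr12:57752261-57752560 (minus strand) for CDK4 and chr7:92836524-92836823 (minus strand) for CDK6.
CCND3: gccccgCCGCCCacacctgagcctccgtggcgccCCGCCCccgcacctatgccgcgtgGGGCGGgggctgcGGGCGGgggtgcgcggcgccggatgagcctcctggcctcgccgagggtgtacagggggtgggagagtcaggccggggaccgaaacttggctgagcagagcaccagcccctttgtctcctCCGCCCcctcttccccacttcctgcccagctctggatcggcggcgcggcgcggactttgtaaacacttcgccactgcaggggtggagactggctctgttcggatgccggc
CCNE1: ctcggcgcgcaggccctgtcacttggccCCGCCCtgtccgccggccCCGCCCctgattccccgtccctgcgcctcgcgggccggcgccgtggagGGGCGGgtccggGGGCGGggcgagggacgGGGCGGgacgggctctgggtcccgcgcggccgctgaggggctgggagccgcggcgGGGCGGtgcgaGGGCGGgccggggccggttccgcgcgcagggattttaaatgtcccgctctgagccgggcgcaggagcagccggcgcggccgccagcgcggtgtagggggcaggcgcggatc
CDK4: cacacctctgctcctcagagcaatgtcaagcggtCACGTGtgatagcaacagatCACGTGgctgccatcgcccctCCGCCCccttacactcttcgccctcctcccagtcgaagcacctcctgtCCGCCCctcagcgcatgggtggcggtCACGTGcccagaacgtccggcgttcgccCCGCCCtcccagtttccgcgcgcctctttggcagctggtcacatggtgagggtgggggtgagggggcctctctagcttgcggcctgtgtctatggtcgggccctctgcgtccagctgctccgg
CDK6: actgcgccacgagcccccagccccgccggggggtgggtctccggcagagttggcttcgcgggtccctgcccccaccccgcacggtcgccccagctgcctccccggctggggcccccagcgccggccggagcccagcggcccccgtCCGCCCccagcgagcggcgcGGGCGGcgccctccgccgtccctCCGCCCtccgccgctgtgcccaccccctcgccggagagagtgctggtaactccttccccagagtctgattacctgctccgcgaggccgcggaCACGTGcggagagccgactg

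The CDK4 window held 3 matches to CACGTG and the CDK6 window held 1, 31 bases after the start site, whereas the CCND3 and CCNE1 windows held none. Of 35116 promoters of the same length, 7.26% held this word. GC boxes were present in all 4 windows, with 7 in CCNE1, 5 in CCND3 and 3 each in CDK4 and CDK6, and in 45.0% of all promoters. At the other listed starts, the second CCND3 window held 4 GC boxes and the third held none, and the second CDK6 window held neither a GC box nor an E-box, so these matches depend on the start taken. No match overlapped another in the windows printed. Words of the E2F type, which were TTCCCGC, the variant TTGGCGC, the variant TTCGCGC and the variant TTGCCGC on either strand, present in 13.0% of promoters, were not found in these 4 windows. The same held for TTTGAA (15.2% of promoters) and TGACGTCA (1.85%), also searched on both strands. These matches describe letters and not binding sites. Only exact words were searched, so the absence of a word does not mean that a site is absent.

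Levels per length spanned a wide range. Averaged over the 6 libraries, CCND1 was the most abundant with 116 RPKM and ranked 497 among the 16117 genes tested, followed by CDK4 with 55.0 RPKM, CDK6 with 31.5 RPKM, CDK2 with 18.9 RPKM, CCND2 with 13.2 RPKM, CCND3 with 10.6 RPKM, CCNE1 with 5.24 RPKM and CCNE2 with 4.62 RPKM. In shLuc cells, the ranges of several neighbours in this order overlapped, namely CDK6 with CDK2, CCND2 with CCND3, and CCNE1 with CCNE2. In shWDR5 cells CDK6 stood above CDK2 in every library, CCND2 stood above CCND3, and CCNE1 stood above CCNE2, whereas the ranges of CDK2 and CCND2 now overlapped. For 5 of 8 genes the groups did not overlap, as was the case for 62.3% of all genes tested (29.9% higher and 32.4% lower).

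**Figure D1:**
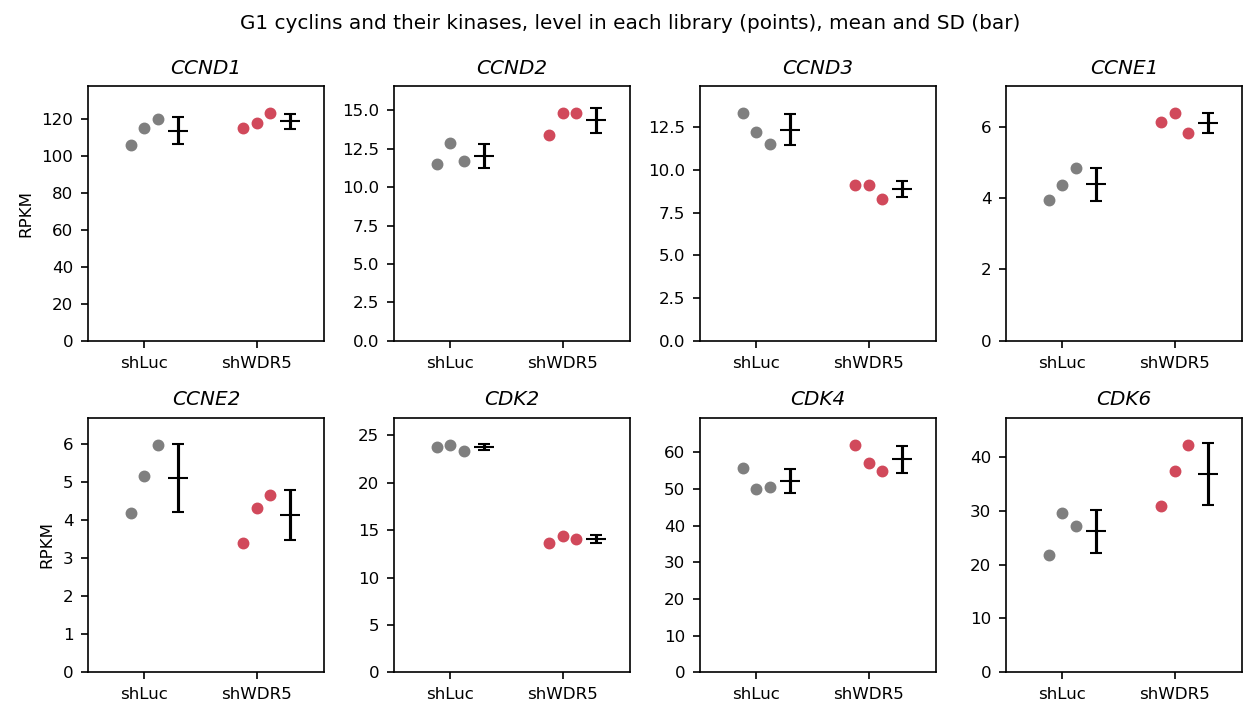
Level of each gene (RPKM, linear axis from 0) in the 3 shLuc (grey) and 3 shWDR5 (red) libraries; points are libraries and black bars are the mean ± SD. The groups are separate for CCND2, CCND3, CCNE1, CDK2 and CDK6 and overlap for CCND1, CCNE2 and CDK4.

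CCND1 encodes cyclin D1 and lies on chromosome 11 (hg19, 69455873 to 69469242, plus strand, 5 exon blocks). Its level was 106, 115 and 120 RPKM in the shLuc libraries and 115, 118 and 123 RPKM in the shWDR5 libraries. The groups overlapped, and the means, 114 ± 7.17 and 119 ± 3.64 (SD, n = 3 each), differed by less than the shLuc spread. The log2 fold change of CCND1 was 0.06 ± 0.058 (SE, edgeR adjusted p = 0.42). Its 95% interval, from 0.952-fold to 1.14-fold, leaves room for a small change in either direction. It had 19165 to 28646 counts per library.

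CCND2 encodes cyclin D2, a further partner of CDK4 and CDK6, on chromosome 12 (hg19, 4382902 to 4414522, plus strand). Its level was 11.5, 12.9 and 11.7 RPKM in shLuc and 13.4, 14.8 and 14.8 RPKM in shWDR5 libraries. Every shWDR5 library was above every shLuc library, although the gap between the groups was small. CCND2 rose with a log2 fold change of 0.25 ± 0.067 (SE, edgeR adjusted p = 0.0082), the smallest of the changes called in this set. Its 95% interval ran from 1.07-fold to 1.32-fold.

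CCND3 encodes cyclin D3, on chromosome 6 (hg19, 41902671 to 42016632, minus strand, 7 exon blocks). Its level was 13.3, 12.2 and 11.5 RPKM in shLuc and 9.13, 9.13 and 8.32 RPKM in shWDR5 libraries. All shWDR5 libraries were below all shLuc libraries, in the opposite direction to CCND2. CCND3 fell with a log2 fold change of -0.48 ± 0.073 (SE, edgeR adjusted p = 0.00028). The interval of 0.641-fold to 0.803-fold did not meet that of CCND2.

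Among the D-type cyclins, the balance of CCND2 to CCND3 differed between groups. CCND2 over CCND3, as a ratio of RPKM, was 0.863, 1.06 and 1.01 in shLuc and 1.46, 1.62 and 1.78 in shWDR5 libraries. CCND3 made up 8.98% ± 1.09 (SD, n = 3) of the summed D-type cyclin RPKM in shLuc and 6.26% ± 0.482 in shWDR5 cells, while CCND2 went from 8.71% ± 0.537 to 10.1% ± 0.386. CCND1 held 82.3% ± 1.40 and 83.6% ± 0.506 and thus dominated the family in both groups. The sum over the 3 genes was 138 ± 6.54 RPKM in shLuc and 142 ± 3.88 RPKM in shWDR5 cells, a difference smaller than the shLuc spread. No test was run on sums and shares, since they are built from genes chosen by name with results known.

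CCNE1 encodes cyclin E1, the activating partner of CDK2 at the entry into S phase, on chromosome 19 (hg19, 30302901 to 30315215, plus strand, 12 exon blocks). Its level was 3.94, 4.36 and 4.84 RPKM in shLuc and 6.12, 6.37 and 5.81 RPKM in shWDR5 libraries. The lowest shWDR5 library stood above the highest shLuc library. CCNE1 rose with a log2 fold change of 0.48 ± 0.089 (SE, edgeR adjusted p = 0.00099), with a 95% interval from 1.22-fold to 1.6-fold. This gene had 329 to 705 counts per library, the lowest of the set together with CCNE2.

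CCNE2 encodes cyclin E2, which activates the same kinase, on chromosome 8 (hg19, 95892453 to 95907482, minus strand). Its level was 4.2, 5.17 and 5.98 RPKM in shLuc and 3.40, 4.31 and 4.67 RPKM in shWDR5 libraries. The groups overlapped, and CCNE2 had the widest spread of the set in shLuc cells, with an SD of 17.4% of its mean. In both groups its level rose from replicate 1 to replicate 3, although the replicate numbers were not taken as pairs. The log2 fold change of CCNE2 was -0.31 ± 0.14 (SE, edgeR adjusted p = 0.089), and its interval ran from 0.651-fold to 1.01-fold. The value without shLuc replicate 1 was -0.42 (adjusted p = 0.017), and without shWDR5 replicate 3 it was -0.40 (adjusted p = 0.046). Without shLuc replicate 3 it was -0.18 (adjusted p = 0.36) and without shWDR5 replicate 1 it was -0.19 (adjusted p = 0.26). In the table, 9.87% of its exon bases are shared with exons of INTS8 on the opposite strand.

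The order of the cyclin E genes in RPKM differed between groups. In every shLuc library CCNE1 was below CCNE2, with a ratio of RPKM of 0.938, 0.844 and 0.809, and in every shWDR5 library it was above, with a ratio of 1.80, 1.48 and 1.24. CCNE1 accounted for 46.3% ± 1.90 (SD, n = 3) of their summed RPKM in shLuc and 59.8% ± 4.43 in shWDR5 cells. The order depends on the division by exon length. Of their summed counts, CCNE1 held 40.1, 37.6 and 36.6% in shLuc and 56.3, 51.3 and 47.1% in shWDR5 libraries. The summed RPKM itself was 9.49 ± 1.34 and 10.2 ± 0.623, which overlapped between groups. The difference between the changes of CCNE1 and CCNE2 was not tested.

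**Figure D2:**
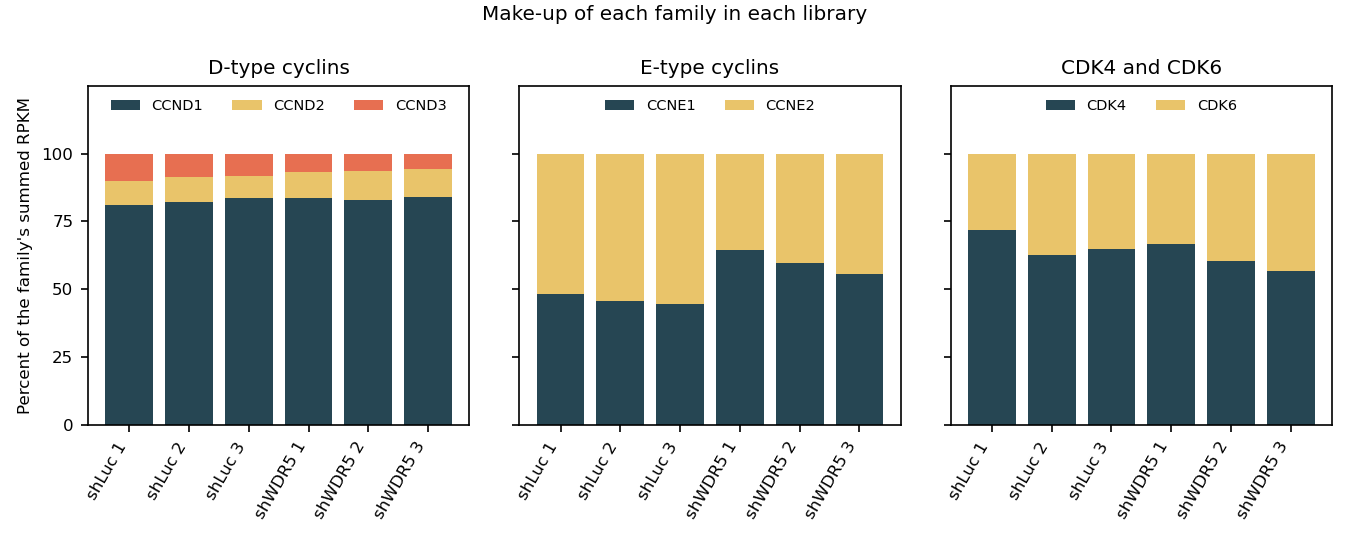
Share of each gene in the summed RPKM of its family (percent, stacked bars, 1 bar per library) for the D-type cyclins, the E-type cyclins, and CDK4 with CDK6. CCND1 fills over 80% of the D-type bars in all libraries, and the CCNE1 share is 44.7 to 48.4% in shLuc and 55.5 to 64.3% in shWDR5 libraries.

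CDK2, the kinase bound by cyclin E and later by cyclin A, lies on chromosome 12 (hg19, 56360553 to 56366573, plus strand). Its level was 23.8, 24.0 and 23.4 RPKM in shLuc and 13.6, 14.4 and 14.1 RPKM in shWDR5 libraries. The replicates of each group were tight, with an SD of 1.32% of the mean in shLuc and 2.98% in shWDR5 cells, and the groups lay far apart. CDK2 fell with a log2 fold change of -0.76 ± 0.057 (SE, edgeR adjusted p = 2.2e-06), the largest change of the set, with an interval from 0.541-fold to 0.645-fold. Among all genes tested, 83.7% had a smaller absolute change. CDK2 was also the sole member past the stricter rule that the study set for its patient-derived xenografts (adjusted p under 0.05, absolute log2 fold change of at least 0.6 and above 0.5 RPKM), which 18.4% of all genes tested passed, 7.90% upward and 10.5% downward.

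CDK4, a kinase partner of the D-type cyclins, lies on the same chromosome (hg19, 58141510 to 58146230, minus strand, 8 exon blocks). Its level was 55.8, 49.9 and 50.6 RPKM in shLuc and 62.0, 57.0 and 55.0 RPKM in shWDR5 libraries. The groups overlapped only through shLuc replicate 1, which was above the lowest shWDR5 library. The log2 fold change of CDK4 was 0.16 ± 0.067 (SE, edgeR adjusted p = 0.070), and without shLuc replicate 1 it was 0.22 (adjusted p = 0.015). Without shLuc replicate 2 it was 0.11 (adjusted p = 0.23), and without shWDR5 replicate 1 it was 0.10 (adjusted p = 0.22). The files share 25.8% of the exon bases of CDK4, 517 bases, with exons of TSPAN31 on the opposite strand, a gene with a log2 fold change of -0.88 (edgeR adjusted p = 1.2e-05). How reads in the shared stretch were counted is not given in the sources used here. TSPAN31 had 421 to 920 counts per library against 3870 to 6482 for CDK4.

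CDK6, the other kinase of the D-type cyclins, lies on chromosome 7 (hg19, 92234235 to 92465941, minus strand) and has the longest gene model of the set, with 11762 exon bases. Its level was 21.7, 29.5 and 27.2 RPKM in shLuc and 30.8, 37.3 and 42.2 RPKM in shWDR5 libraries. The groups did not overlap, but the lowest shWDR5 library was close to the highest shLuc library. CDK6 rose with a log2 fold change of 0.49 ± 0.13 (SE, edgeR adjusted p = 0.0066), with a wide interval from 1.16-fold to 1.71-fold. Its SD was 15.5% of the mean in both groups, although CDK6 had more counts than any other member apart from CCND1.

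In both groups replicate 1 had the highest CDK4 and the lowest CDK6 level. The ratio of CDK4 to CDK6 in RPKM was 2.58, 1.69 and 1.86 in shLuc and 2.01, 1.53 and 1.30 in shWDR5 libraries, so the ratios overlapped between groups. The summed RPKM of both kinases was 78.2 ± 1.01 (SD, n = 3) in shLuc and 94.8 ± 2.24 in shWDR5 cells, and each library of the latter was above each of the former. CCND1 over CDK2, the most abundant cyclin of the set against the kinase that fell, was 4.79 ± 0.340 in shLuc and 8.45 ± 0.249 in shWDR5 cells. Since CCND1 did not pass the test, this ratio restates the fall of CDK2 and is not a further result.

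**Figure D3:**
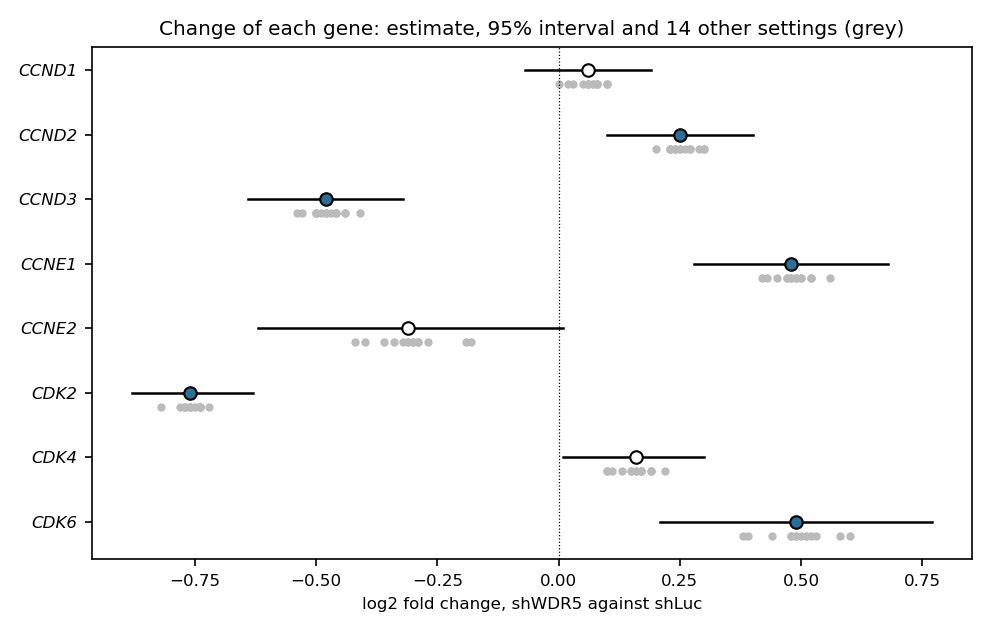
Log2 fold change of each gene in shWDR5 against shLuc cells (horizontal axis); circles are the edgeR estimates, filled where the adjusted p was under 0.05, black lines are 95% intervals and grey points are 14 other settings of the analysis. CDK2 and CCND3 lie below 0 and CCND2, CCNE1 and CDK6 above 0 in all settings.

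The genes acting on these cyclins and kinases were examined in lists. Of 91 list members tested, 69 were called (75.8%), 20 higher and 49 lower. The share over all genes tested was 56.5%, with 26.6% higher and 29.9% lower. Among CIP and INK4 inhibitors, 1 was higher and 2 were lower of 5 tested. CDKN1A, which encodes p21, was 169 ± 0.627 (SD, n = 3) RPKM in shLuc and 282 ± 14.8 RPKM in shWDR5 cells, a log2 fold change of 0.73 (edgeR adjusted p = 1.9e-06). CDKN2D, an INK4 inhibitor of CDK4 and CDK6, fell by 0.52 and CDKN1C fell by 2.24 on the log2 scale, the latter from a level of only 0.421 RPKM. CDKN1B, which encodes p27, had a log2 fold change of 0.01 (adjusted p = 0.97). CDKN2A and CDKN2B had 0 counts in every library and were not tested.

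The substrates of the kinases are the pocket proteins, of which 2 of 3 were lower. The called share over all genes tested was 56.5%, with 26.6% higher and 29.9% lower. RBL1 went from 4.53 ± 0.204 (SD, n = 3) to 2.88 ± 0.0900 RPKM and RBL2 from 14.4 ± 0.321 to 10.6 ± 0.206 RPKM, with log2 fold changes of -0.65 and -0.44 (edgeR adjusted p = 1.9e-05 and 6.2e-05). RB1 itself, at 17.6 ± 2.60 and 16.9 ± 2.75 RPKM, did not pass the test (adjusted p = 0.74), and its interval ran from 0.792-fold to 1.17-fold. Of 10 E2F and DP factors, 5 were higher and 4 lower (4 and 4 when libraries were scaled by their totals alone). E2F1 (-0.47), E2F2 (-1.15) and E2F8 (-1.80) fell, whereas E2F4 (0.43), E2F5 (0.49) and E2F7 (0.61) rose, each given as a log2 fold change.

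Of the 20 listed genes that E2F factors drive at the start of S phase, 19 were lower and none higher. This held under each of the 4 ways of scaling the libraries. The median log2 fold change of the list was -0.72. Of all genes tested, 29.9% were lower and 26.6% higher. This list, like the others, was chosen with earlier results of these data known. It leaves out CCNE1, which rose, and the E2F genes themselves, which went in both directions. MCM5 (-1.24) and MCM6 (-1.11), subunits of the replicative helicase, GINS1 (-1.17), which joins it, CDC6 (-0.94), which loads it, and RRM1 (-1.05) and RRM2 (-0.94), the subunits of ribonucleotide reductase, showed the largest changes. The level of MCM5 went from 40.1 ± 1.43 (SD, n = 3) to 17.0 ± 0.718 RPKM. The exception was SLBP, the histone mRNA binding protein, with 21.5 RPKM in both groups and an adjusted p of 0.99 (edgeR).

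Of the 8 genes of the CDK-activating kinase and of the kinases and phosphatases that act on the CDKs, 5 were lower and none higher, although with upper-quartile scaling 1 was higher. The called share of 62.5% was near the 56.5% of all genes tested. All 5 calls were lower, however, beside 29.9% lower among all genes tested. CCNH (-1.10) and MNAT1 (-0.78), partners of CDK7 in the CDK-activating kinase, were lower, while CDK7 (-0.07), CDC25B (0.05) and WEE1 (0.14) did not pass the test (adjusted p = 0.43, 0.49 and 0.091). CDC25A (-1.20), the phosphatase that activates CDK2, went from 12.4 ± 1.01 (SD, n = 3) to 5.39 ± 0.219 RPKM (edgeR adjusted p = 8.0e-07). CDC25C (-1.12) and PKMYT1 (-1.11), which act on CDK1, fell to a similar degree. Among 13 factors in the turnover of G1 cyclins and p27, 4 were higher and 5 lower (2 and 7 with library totals alone). SKP2 (-0.60) and CKS1B (-0.55), which together deliver p27 for degradation, FBXO4 (-1.14) and CKS2 (-0.34) fell, and CRYAB (0.96) and SKP1 (0.35) rose. Of the chaperones of CDK4 and CDK6, CDC37 rose by 0.66 and HSP90AA1 fell by 0.80 on the log2 scale, whereas HSP90AB1 had a log2 fold change of -0.02 (adjusted p = 0.78).

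**Figure D4:**
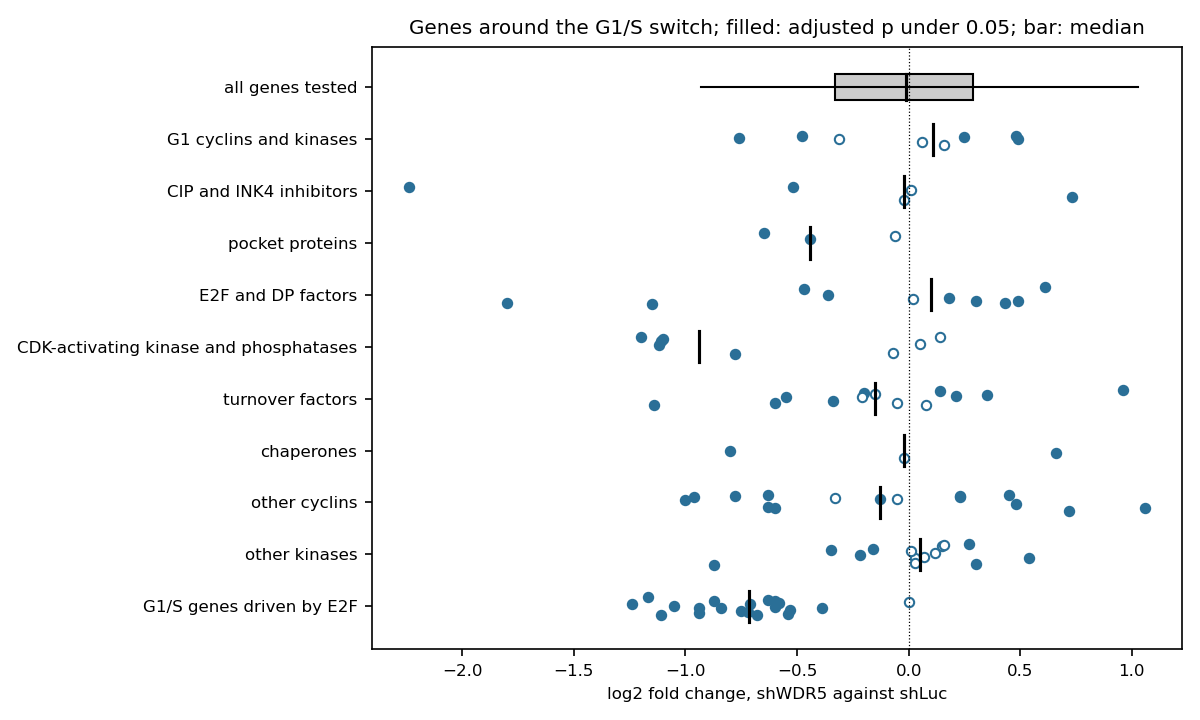
Log2 fold change of each tested gene by list (horizontal axis); filled points had an adjusted p under 0.05, open points did not, black bars are list medians, and the box over all genes tested spans the quartiles with a line from the 5th to the 95th percentile. The listed E2F-driven G1/S genes lie to the left with a median of -0.72. The G1 cyclins and kinases spread from -0.76 to 0.49 around a median of 0.11.

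The genes whose profile over the 6 libraries was most like that of a called member were found by the root mean square difference of log2 CPM, each gene centred on its own mean. For CDK2 these were ARHGAP19 (0.020) and WDYHV1 (0.023), for CCND3 GNB2L1 (0.014) and CTDSP2 (0.016), and for CCND2 PRNP (0.022) and LYRM1 (0.025). The nearest to CCNE1 were PPARGC1A (0.042) and LOC100289580 (0.044), and the nearest to CDK6 were LINC00657 (0.035) and RC3H1 (0.035). The median difference over all genes tested ranged from 0.25 for CCND2 to 0.41 for CDK2. None of the nearest genes was another member of the set.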

How the data were processed

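Poly-A RNA libraries (TruSeq) of 3 shLuc and 3 shWDR5 MCF10DCIS samples were sequenced. The authors deposited raw read counts per gene (whole numbers, not scaled), made per the labels with TopHat2 2.1.0 on hg19 and featureCounts. The strand setting and annotation release are not given in the sources used here. The second deposited table holds the authors' own edgeR 3.2.2 comparison (fold changes, p-values) and was not used. Groups came from the sample titles.

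Genes were kept with filterByExpr (minimum count 10), scaled by TMM, and tested with edgeR 4.0.16 (glmQLFit, glmQLFTest, design with group alone) in R 4.3.3. P-values were adjusted over all 16117 genes. Standard errors were the log2 fold change divided by the root of F. RPKM used the exon lengths in the table. The script was tested on simulated data. Alternatives were other scalings, filters, DESeq2 1.42.0, limma-voom 3.58.1, a replicate block and leaving out each library. Correlations of deviations between equal replicate numbers were 0.372, 0.0358 and 0.116, so the numbers were not taken as pairs. Between unequal numbers they were -0.312 to -0.0986 where replicate 1 of either group was involved, and 0.21 and 0.0685 otherwise.

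The members and lists were chosen with earlier results of these data known. All 8 members, WDR5, the pocket proteins and up to 6 called genes per list with the largest absolute change were named, with the 2 genes nearest in profile to each called member. Cell type markers came from fixed lists. Other genes named, such as CDKN1B, SLBP, CDK7 and TSPAN31, and which markers to name, were chosen after their values were seen.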

Additional observations from a re-analysis of the deposited data

How the results depend on the processing

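CCND2, CCND3, CCNE1, CDK2, CDK6 and WDR5 kept their direction and stayed past the threshold in all 14 alternative fits, and these 5 members were shared with the reported calls in each. The number of called members ranged from 5 to 7 over those fits, and from 5 to 7 when 1 library was left out. CCND1 passed in none of the 14, with log2 fold changes up to 0.10. CDK4 passed in 4 of 14 (upper-quartile factors, at least 1 CPM in 3 libraries, the replicate block, and without shLuc replicate 1) and CCNE2 in 4 (no count filter, the replicate block, without shLuc replicate 1 and without shWDR5 replicate 3). With the replicate block, 7 members were called, the additions being CDK4 (adjusted p = 0.0045) and CCNE2 (adjusted p = 0.0011), and 10412 of all genes against 9112. In the pairing check not every library correlated best with its own number. Under the study's call rule, which by construction adds a minimum fold and level, 1 member, 36 list genes and 2962 of all genes were called. Of 42 called list genes that were named, none changed sign in any fit that tested it, CDK11B lost its call in 3, and CDKN1C was not tested under the stricter filter. With library totals alone, the median over all genes moved from -0.011 to -0.068 and 40.3% of calls were higher, against 47.1%. CCNE1 and CCNE2 rest on 329 to 705 counts per library, the fewest of the set.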

Other observations

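Cyclins and cyclin-dependent kinases that are not members of the G1 set formed further lists. Of 15 other cyclins, 6 were higher and 7 lower in shWDR5 cells, with a median log2 fold change of -0.13. The share called was 86.7%, beside 56.5% of all genes tested. CCNA2 fell from 33.6 ± 2.49 (SD, n = 3) RPKM in shLuc to 16.8 ± 1.47 RPKM in shWDR5 cells. The mitotic cyclins CCNB1 (log2 fold change -0.63) and CCNB2 (-0.96) fell as well. CDK1, the kinase that these B-type cyclins bind, fell by 0.87 on the log2 scale (edgeR adjusted p = 1.2e-05). CCNA1, the germline cyclin A, was higher, from 1.98 ± 0.241 to 4.13 ± 0.129 RPKM (log2 fold change 1.06, edgeR adjusted p = 9.2e-06). CCNG1 fell by 0.78 on the log2 scale.

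Of 15 other kinases, 14 were tested, 3 were higher and 4 lower (4 and 2 with upper-quartile factors), so that 7 of 14 were called, a share below the 56.5% of all genes. CDK9, which releases paused RNA polymerase II, rose by 0.54, and of its cyclin partners CCNT2 rose by 0.72 and CCNT1 fell by 0.63 on the log2 scale. CDK13 (0.30) and CDK5 (0.27) also rose, and CDK14 (-0.35) and CDK11B (-0.22) fell. CDK11B has a near-identical copy, CDK11A, so its count is uncertain. No test was run between these genes and the G1 set.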
